A study of Mus musculus with 24 samples.

Results

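Microexons are the shortest exons of a gene, and the 479 described here lie in 432 mouse host genes and measure 3 to 15 nt. They are the events that the deposited splicing table marks as microexons, among 54141 exon events in all. RNA had been sequenced from cells of the E14 mouse embryonic stem cell line and from cells differentiated from them in vitro, at 4 stages: undifferentiated ESCs (embryonic stem cells), NPCs (neural progenitors) at day 7, PSA-NCAM+ cells (cells carrying the polysialylated neural cell adhesion molecule, purified on beads) at day 10, and neurons, which came from cultures replated at day 7 and grown for 14 days more. Every stage was represented by wild-type (WT) and by slow/slow cells, and the latter carry the R749H substitution in both copies of Polr2a, the gene of the largest subunit of RNA polymerase II, and transcribe with a slower polymerase. There were 3 replicates in each of the 8 groups, 24 samples in all, from independent differentiation experiments. The slow/slow cells are 1 derived line, made by sequential targeting of both alleles, so the substitution cannot be told apart from anything else that is particular to that line. At the start of differentiation, WT and slow/slow cells were plated at different densities, which cannot be told apart from genotype either.

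Microexons are joined into the mRNA of many genes in neurons and skipped in most other cells. Most keep the reading frame, so that inclusion adds a few amino acids to a protein, often in a loop on its surface. In neurons the splicing factor SRRM4, helped by its relative SRRM3, binds upstream of many of them and promotes inclusion, while PTBP1, which is abundant in dividing cells, represses many. Because an exon of this size holds few binding sites for splicing factors, its inclusion depends on sequence in the flanking introns, and the speed of RNA polymerase II is among the influences on how long such sites are exposed before the next ones are made.

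Inclusion is given as PSI (percent spliced in), the percent of reads at an exon's junctions that join the exon into the mRNA. A value was used in a sample only where the first field of its quality score was SOK, OK or LOW, the grades for sufficient reads. By this rule 428 of the 479 microexons had a value in at least 1 sample, 242 had one in all 24 samples and 51 had none anywhere. A single library gave values for 277 to 400 microexons, with 70 to 233.5 reads at the median microexon and 32974432 to 104466886 counts over all genes. At a PSI of 50, the Wilson 95% interval spans 29.9% to 70.1% with 20 reads, 38.6% to 61.4% with 70 reads and 43.6% to 56.4% with 234 reads, which covers counting error only. Over the 242, the median SD within a group was 0 to 0.665 points and the 90th percentile of the SD 2.04 to 4.25 points. Most of the 242 were close to 0, where the SD is small by construction, and microexons of intermediate inclusion varied more, up to an SD of 17.9 points among the values below. None of the 3 microexons of Pcdh15, a cadherin of hair cells of the inner ear, had a value in any sample, and none of the 4 of Tnnt3, a muscle troponin, had one in neurons.

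The sequences below are those of microexons on which the results turn, or that allow related hosts to be compared. Of the 479 microexons, 201 (42.0%) matched 1 exon of the GENCODE M21 annotation by exon length and both intron lengths, and 193 of these lay within coding sequence. Each line reads 5′ to 3′ along the transcript, with the microexon in capitals and the neighbouring exons in lower case, from GENCODE M21 transcripts on the GRCm38 assembly. Coordinates are those of the deposited file, in the mm9 assembly. First come the neuron navigators Nav1 (chr1:137354438-137354446) and Nav2 (chr7:56830617-56830625), paralogues that bind microtubules, whose 9-nt microexons differ at 2 of 9 positions and behaved differently.
Nav1: gaagagttggGTTTATGAGcttcggagtt
Nav2: gaaaaactggGTCAATGAGttgcgcagct
The 3-nt microexons of Clasp1 (chr1:120444233-120444235) and Clasp2 (chr9:113796163-113796165), whose products stabilise microtubule ends, are identical.
Clasp1: ccctcacagcaagAGAgttttcagtatgt
Clasp2: tcctcatggcaagAGAgtgttcagcatgt
Microexons that were less included in slow/slow neurons are shown for Kdm1a (chr4:136119353-136119364), Clec16a (chr16:10573011-10573016), Ccdc64 (chr5:116122153-116122164) and Apbb1 (chr7:112714460-112714465).
Kdm1a: ggacaagctGACACTGTCAAGgttccaaaa
Clec16a: atgtctacaaagTGTCATtggataaccagg
Ccdc64: caggccgagCAGGTCCTTGAAatcaagatg
Apbb1: ggacagtggaagAGAGAGggactttgccta
Microexons that were more included there are shown for Macf1 (chr4:123063792-123063800), Vps29 (chr5:122806803-122806814) and Agrn (chr4:155543655-155543666).
Macf1: gtctgctcagATCACAGAGtttcatgata
Vps29: gacaggatgGCTGGGCACAGAttggtgttg
Agrn: gaatctccgAAATCCCGCAAGgtcccgcac
The genotype difference went opposite ways in NPCs and neurons for Supt5h (chr7:29115037-29115048) and Incenp (chr19:9957682-9957693), and Myo18a (chr11:77636165-77636176) had the widest of the gains called between WT NPCs and WT neurons.
Supt5h: tggagaaagAAGAGATTGAAGcctccaata
Incenp: gaccctaagTGCAGCTTTGTTgagaaggag
Myo18a: ctaccaaagAAGCTGCTGAAGctggacgaa

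Lengths were uneven. The commonest were 12 nt (98 microexons), 3 nt (84), 15 nt (82), 9 nt (71) and 6 nt (42), all multiples of 3, and 377 of the 479 (78.7%) had a length divisible by 3, against 41.1% of the other exon events. Most hosts (393) held 1 microexon, 32 held 2, 6 held 3 and Tnnt3 held 4.

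Most microexons were skipped at every stage, and the neurons stood apart from the earlier stages. Of the 242 microexons with a value in every sample, 206 had a mean PSI under 10 in WT ESCs, 201 in WT NPCs, 198 in WT PSA-NCAM+ cells and 152 in WT neurons. Those between 10 and 90 went from 18 in WT ESCs and 24 in WT NPCs to 73 in WT neurons. Of the 242, a group of 15 to 18 was included at over 90 at each WT stage. Microexons without a value at an earlier stage are not in these counts. Among them are the 12-nt one of L1cam (mean PSI 99.6 in WT neurons) and that of Ap1s2 (93.7). In slow/slow cells the numbers under 10 were 206, 205, 198 and 157 in the same order, and those between 10 and 90 were 17, 19, 29 and 64. Other exons had the reverse profile, with 90.1% to 93% of the 17547 covered in all samples at a PSI over 90 in each group. Some microexons hardly varied. One of the 2 microexons of Clasp1 was at 0 in every sample and the other, also of 3 nt, had group means of 98.4 to 99.8, and a 12-nt microexon of Ptprs, a receptor phosphatase that organises synapses, was at 99.2 to 100 (group means).

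**Figure D1:**
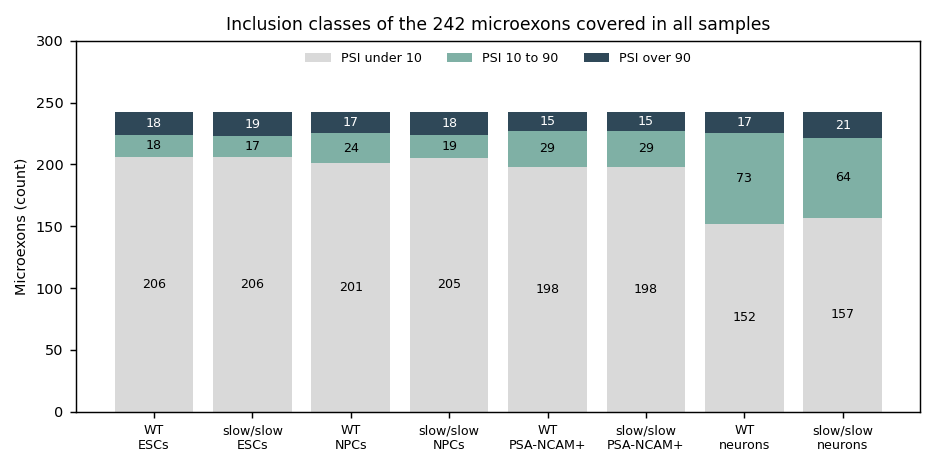
Stacked bars give the number of microexons (of the 242 covered in all 24 samples) whose mean PSI in a group of 3 replicates was under 10, between 10 and 90, or over 90. The under-10 class holds 198 to 206 microexons in the 6 groups before neurons, with 152 for WT neurons and 157 for slow/slow neurons.

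The step from NPCs to neurons was tested within each genotype. A microexon was called when the difference of mean PSI exceeded 10 points and the posterior probability of its sign, from beta distributions of the reads of each replicate, exceeded 0.95. In WT cells 92 of the 305 microexons tested were called, 84 more included in neurons and 8 less, where 6.48% of all exon events were called (2.07% more included and 4.42% less). The 84 gains had a median of 56.8 points and reached 90. The 3 WT replicates of Myo18a, an unconventional myosin, were at 2.0, 5.0 and 6.1 in NPCs and at 95.2, 95.1 and 92.9 in neurons. Those of Myo5a, the motor that carries vesicles along actin, were at 0.0, 1.5 and 0.0 in NPCs and at 89.3, 87.5 and 88.4 in neurons. Both went from near 0 to near full inclusion. Groups that do not overlap were a condition for naming a microexon by the size of its change, so their separation is a description and no further support. The same holds for every microexon named by size in the comparisons below. Apbb1, which encodes the amyloid precursor adaptor Fe65, rose from 2.2 ± 1.4 (SD, n = 3) to 89.3 ± 1.9. Dctn1, the dynactin subunit that binds microtubules, rose from 0.3 ± 0.4 to 86.0 ± 2.5, and Porcn, the enzyme that attaches a lipid to Wnt proteins, from 2.5 ± 0.9 to 87.6 ± 4.4. In all, 43 of the 305 went from a mean PSI under 10 in WT NPCs to over 50 in WT neurons, 9 of them to over 80, while 181 were under 10 in both.

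Among the 8 that fell in WT neurons, Nav2 went from 89.5, 95.9 and 95 in the NPC replicates to 16.4, 18 and 9.7 in the neuron replicates. The 9-nt microexon of Macf1, a giant protein that crosslinks microtubules and actin, went from 90.9, 93.7 and 92.3 to 19.0, 26.7 and 28.4. Each of these exons was in most of the mRNA in WT NPCs and in a minor part of it in WT neurons. The 3-nt microexon of Ncam1, a cell adhesion molecule, fell from 93.3 ± 4.0 to 25.2 ± 1.4, and the NPC values rest on 30 to 46 reads. Clasp2 fell from 67.0 ± 2.2 to 18.9 ± 1.3. Vps29, a subunit of the retromer that returns proteins from endosomes, fell from 42.4 ± 2.7 to 17.0 ± 2.6.

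In slow/slow cells 75 of 284 microexons were called between NPCs and neurons, 71 more included and 4 less, where 3.72% of all exon events were called (1.96% more included and 1.76% less). The gains had a median of 45.3 points, 27 microexons went from under 10 to over 50, and 2 went to over 80. Agap1, a regulator of the small GTPase Arf in endosomal traffic, was at 1.2, 0.0 and 0.0 in slow/slow NPCs and at 81.0, 76.8 and 85.1 in slow/slow neurons. Spna2, the alpha chain of brain spectrin under the cell membrane, rose from 14.4 ± 1.4 to 89.1 ± 0.9. Dtna, a partner of dystrophin, rose from 0.3 ± 0.4 to 79.4 ± 2.0, and Slc43a2, an amino acid transporter, from 0.8 ± 1.3 to 74.1 ± 5.3. Falls were called for Ncam1 (93.0 ± 6.1 to 26.7 ± 2.2), Macf1 (95.9 ± 0.7 to 65.8 ± 1.6), Nav2 (47.2 ± 9.3 to 20.1 ± 2.1) and Dnm2 (92.3 ± 0.5 to 81.0 ± 2.8). The Dnm2 call was lost without the third slow/slow neuron replicate. The comparisons of the 2 genotypes share no sample. Of the 278 microexons tested in both, 77 rose in WT and 71 in slow/slow cells, and 66 rose in both, which is 85.7% of the WT and 93% of the slow/slow gains. The overlap was not counted for other exons, so it cannot be called particular to microexons.

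Between ESCs and NPCs few microexons were called. In WT cells 15 of 278 were, 13 more included in NPCs and 2 less, where 2.42% of all exon events were called (1.82% more included and 0.602% less). Idh3g, a subunit of mitochondrial isocitrate dehydrogenase, was at 37.3, 37.7 and 37.8 in WT ESCs and at 70.4, 74.3 and 70.0 in WT NPCs. The replicates of each stage lay within 5 points of each other and the stages were far apart. Tead1, a transcription factor of the Hippo pathway, rose from 6.8 ± 3.8 to 34.7 ± 3.5, and the dynamin Dnm2, which pinches vesicles off membranes, from 57.0 ± 2.3 to 83.8 ± 1.5. Supt5h, which encodes the elongation factor Spt5 of RNA polymerase II, fell from 90.9 ± 0.8 to 64.0 ± 2.9. In slow/slow cells 7 of 264 were called, 5 more included and 2 less, where 0.763% of all exon events were called (0.414% and 0.349%). Supt5h was at 93.1, 91.9 and 93.4 in slow/slow ESCs and at 50.6, 48.8 and 52.4 in slow/slow NPCs, and Clasp2 fell from 65.7 ± 5.3 to 43.1 ± 6.8. Dnm2 rose from 74.6 ± 2.4 to 92.3 ± 0.5 and Idh3g from 32.6 ± 0.6 to 43.1 ± 3.4, a call that was lost without the first slow/slow NPC replicate.

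PSA-NCAM+ cells differed from NPCs at 7 of 307 microexons in WT cells (2 more included and 5 less) and at 5 of 301 in slow/slow cells (3 and 2), where 1.36% of all exon events (0.251% more included and 1.11% less) and 0.794% (0.105% and 0.688%) were called. Supt5h rose in both genotypes, to 83.6 ± 1.1 in WT and 66.1 ± 4.4 in slow/slow PSA-NCAM+ cells. Hook3, which ties cargo to the dynein motor, fell from 58.3 ± 1.3 to 21.3 ± 3.6 in WT and from 49.9 ± 1.8 to 33.8 ± 5.3 in slow/slow cells. The slow/slow Hook3 call was lost without the first or the second slow/slow PSA-NCAM+ replicate. With limma on the logit of the reads, at an FDR under 0.05, 0 microexons and 0 of all exon events were called in either genotype, and 34 in WT and 29 in slow/slow cells had an unadjusted p under 0.05.

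**Figure D2:**
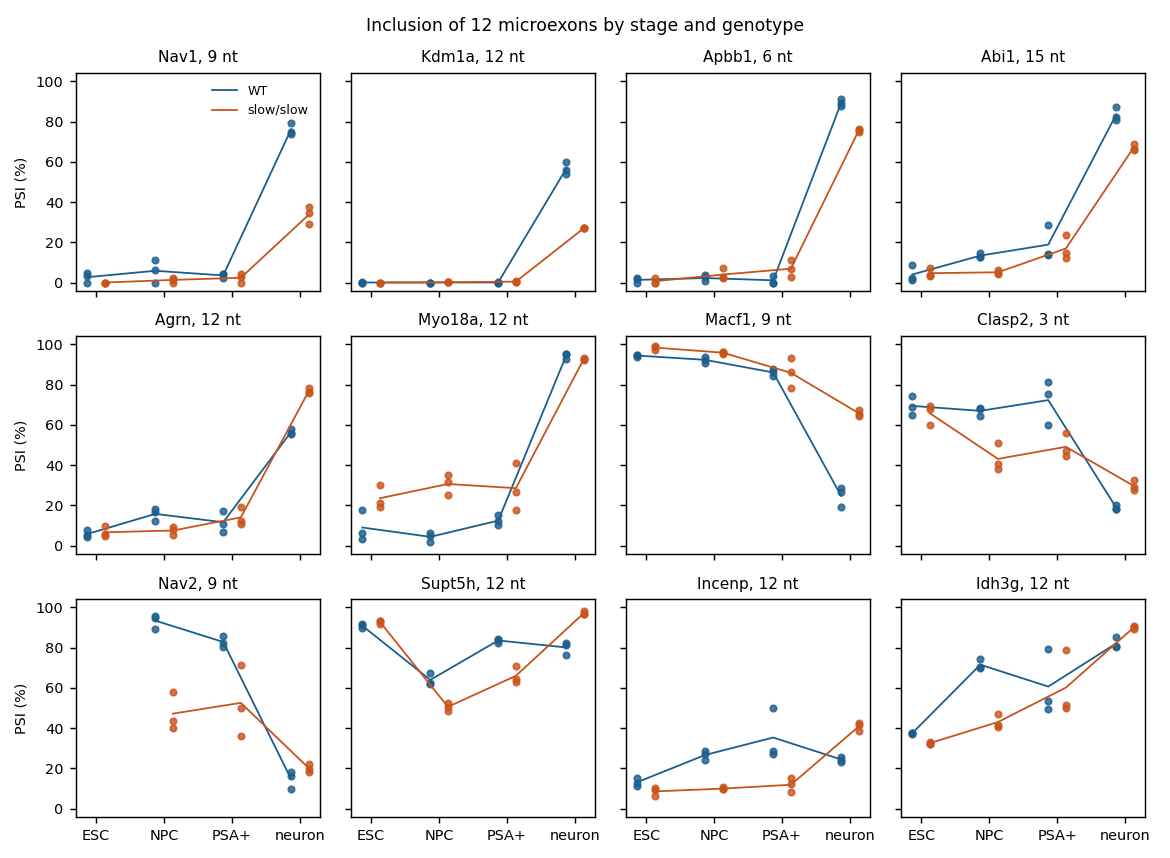
PSI (%, y axis) of 12 microexons by stage (x axis: ESC, NPC, PSA+ for PSA-NCAM+ cells, neuron), with 1 point per replicate and a line through the group means, in WT (blue) and slow/slow (orange) cells. Nav1, Kdm1a and Apbb1 are near 0 until neurons and lower there in slow/slow, whereas the 9-nt microexon of Macf1 is mostly included until neurons and is 65.8 in slow/slow against 24.7 in WT neurons.

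The genotypes were compared within each stage. In ESCs 2 of 263 microexons were called, where 0.809% of all exon events were (0.372% more included and 0.437% less). The microexon of Dnm2 was at 54.7, 56.8 and 59.4 in WT and at 73.7, 72.8 and 77.3 in slow/slow ESCs. Prune2 was at 20.9, 17.6 and 14.2 in WT and at 5.2, 6.6 and 1.2 in slow/slow ESCs. The groups did not overlap in either case, while the Prune2 difference had an FDR of 0.146 in limma. Without the second WT or the first slow/slow ESC replicate, 4 microexons were called.

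In NPCs 16 of 298 microexons were called, 2 more included in slow/slow and 14 less, where 2.93% of all exon events were called (0.801% more included and 2.12% less). Nav2 was at 89.5, 95.9 and 95 in WT and at 57.8, 40.2 and 43.7 in slow/slow NPCs, on 27 to 117 reads. Idh3g was at 70.4, 74.3 and 70.0 in WT and at 46.9, 41.8 and 40.5 in slow/slow NPCs, on at least 672 reads. Both were lower in every slow/slow replicate than in any WT replicate. Spna2 was lower at 14.4 ± 1.4 against 41.1 ± 2.2, Tead1 at 7.6 ± 3.9 against 34.7 ± 3.5 and Dnm1, the dynamin of synapses, at 41.6 ± 7.9 against 74.1 ± 3.2. Clasp2 was lower at 43.1 ± 6.8 against 67.0 ± 2.2 and Mtss1l, which binds membranes and actin, at 23.7 ± 3.2 against 51.6 ± 10.1. The 2 that were more included were Myo18a, at 35.2, 31.7 and 25.0 in slow/slow against 2.0, 5.0 and 6.1 in WT NPCs, and Kif3a, a kinesin motor subunit, at 88.0 ± 3.0 against 64.6 ± 5.6. All 9 of these had an FDR under 0.05 in limma, the highest being 0.0356 for Mtss1l. Expression of Dnm1 was 9.89 ± 0.745 CPM (counts scaled to a common library size with TMM factors) in slow/slow and 43.0 ± 2.86 in WT NPCs, and that of Myo18a 63.4 ± 5.33 against 144 ± 6.89 (edgeR FDR 1.01e-11 and 6.56e-05).

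In PSA-NCAM+ cells 8 of 315 microexons were called, 2 more included in slow/slow and 6 less, where 0.966% of all exon events were called (0.238% and 0.727%). Supt5h was at 83.9, 82.4 and 84.5 in WT and at 71.0, 62.8 and 64.3 in slow/slow cells. Incenp, a subunit of the chromosomal passenger complex of mitosis, was at 50.2, 27 and 28.9 in WT and at 15.2, 8.3 and 12.2 in slow/slow cells. For Incenp the first WT replicate stood well above the others. Nav2 (52.6 ± 17.9 against 82.8 ± 2.9), Cyth1, an exchange factor for Arf (17.7 ± 6.8 against 49.5 ± 15.8), Clasp2 (49.1 ± 6.0 against 72.3 ± 11.0) and Mtss1l (27 ± 4.1 against 45.8 ± 9.4) were less included, and Vps29 (46.4 ± 7.9 against 32.0 ± 6.1) and Clip1, a microtubule end protein (17.6 ± 2.2 against 6.7 ± 3.3), were more included. The first slow/slow replicate of this stage stood apart in its markers, with 11.8 CPM of the progenitor gene Sox3 against 54.3 and 68.2 in the others and 42.8 CPM of the neuronal gene Tubb3 against 131 and 205, and its part in the calls was not tested beyond leaving it out. Without it 15 microexons were called, and without the third slow/slow replicate 5. With limma 0 of the 315, and 0 of all exon events, were called at an FDR under 0.05, and 45 had an unadjusted p under 0.05. With the replicate number added to the limma model, 3 of the 8 calls were kept and 114 of 24333 exon events (0.468%) were called. The calls of Vps29, Clip1, Cyth1, Nav2, Clasp2 and Mtss1l were each lost when 1 replicate or another was left out, whereas those of Supt5h and Incenp were kept.

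In neurons 58 of 346 microexons were called, 15 more included in slow/slow and 43 less, where 3.55% of all exon events were called (1.99% more included and 1.56% less). The 43 that were less included differed by 10.2 to 42.4 points with a median of 18.4, and the 15 that were more included by 10.4 to 41.1 points with a median of 17.7. Over all 346 the median difference was −0.14 points, and the median absolute difference 1.18 points. Leaving out 1 replicate at a time gave 54 to 69 calls.

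Several of the microexons that were less included in slow/slow neurons belong to proteins of the cytoskeleton and its motors. Nav1 was at 74.9, 79.5 and 74.0 in WT and at 34.6, 28.9 and 37.6 in slow/slow neurons. Hook2, a dynein adaptor, was at 67.3, 65.3 and 56.4 in WT and at 31.1, 26.2 and 11.1 in slow/slow neurons. Ccdc64, now named Bicdl1, another adaptor of dynein, was at 58.2, 59.5 and 60 in WT and at 25.8, 21.6 and 34.5 in slow/slow neurons. Every slow/slow replicate of the 3 hosts was below every WT replicate by more than the replicates of a genotype spread. Since the rule for naming required groups that do not overlap, this only describes them. Lrrc16a, a regulator of actin capping, was at 45.1 ± 10.8 against 73.4 ± 4.1, on 28 to 111 reads. Abi1, part of the WAVE complex that starts actin branching, was at 67.2 ± 1.6 against 83.5 ± 3.3, and Enah, which lengthens actin filaments, at 2.0 ± 2.0 against 13.6 ± 2.4.

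Other hosts with less inclusion act at the nucleus, in endosomes or at the membrane. Kdm1a encodes LSD1, a histone demethylase whose microexon is known from neurons, and was at 59.8, 55.8 and 53.9 in WT and at 27, 27 and 26.9 in slow/slow neurons, on 581 to 1464 reads. It was at 0 in 2943 reads of WT NPCs, which allows a PSI of up to 0.102%. Clec16a, which takes part in endosomal traffic and the removal of mitochondria, was at 85.2, 82.8 and 83.1 in WT and at 56.9, 54.7 and 44.6 in slow/slow neurons. For both, the gap between the genotypes was wider than the spread within either. Apbb1 was at 75.7 ± 0.7 against 89.3 ± 1.9, and Nfasc, neurofascin of the axon initial segment, at 63.9 ± 5.3 against 85.5 ± 2.3. Cacna1a, the pore of P/Q-type calcium channels, had 4.4, 2.0 and 3.1 in slow/slow against 23.0, 19.5 and 21.5 in WT neurons for its 12-nt microexon. Ptprs had a second 12-nt microexon at 5.9 ± 0.1 in slow/slow against 16.6 ± 1.3 in WT neurons. All the hosts of this and the preceding paragraph had a limma FDR under 0.05, from 0.000287 for Kdm1a to 0.0297 for Enah.

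The 15 with more inclusion included Macf1, at 65.2, 67.5 and 64.6 in slow/slow against 19.0, 26.7 and 28.4 in WT neurons. Vps29 was at 40.6, 44.0 and 40.1 in slow/slow against 16.7, 14.5 and 19.7 in WT neurons. Agrn, the proteoglycan agrin that gathers receptors at synapses, was at 75.8, 78.1 and 76.5 in slow/slow against 57.9, 55.5 and 56.1 in WT neurons. In each of the 3, the replicates of a genotype lay within 10 points and the genotypes did not overlap. Robo1, a receptor of Slit proteins in axon guidance, was at 51.4 ± 3.6 against 27.7 ± 5.6, Dtna at 79.4 ± 2.0 against 59.9 ± 2.4, Dnm2 at 81.0 ± 2.8 against 67.2 ± 2.5 and Clasp2 at 29.6 ± 2.7 against 18.9 ± 1.3. These 7 had limma FDRs from 0.000288 for Agrn to 0.0081 for Robo1, while the Clasp2 call was lost without the second slow/slow replicate. Slc43a2 (74.1 ± 5.3 against 55.1 ± 8.9) had a posterior probability of 0.951 and a limma FDR of 0.134, and its call was lost when any of 4 of the 6 replicates was left out.

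**Figure D3:**
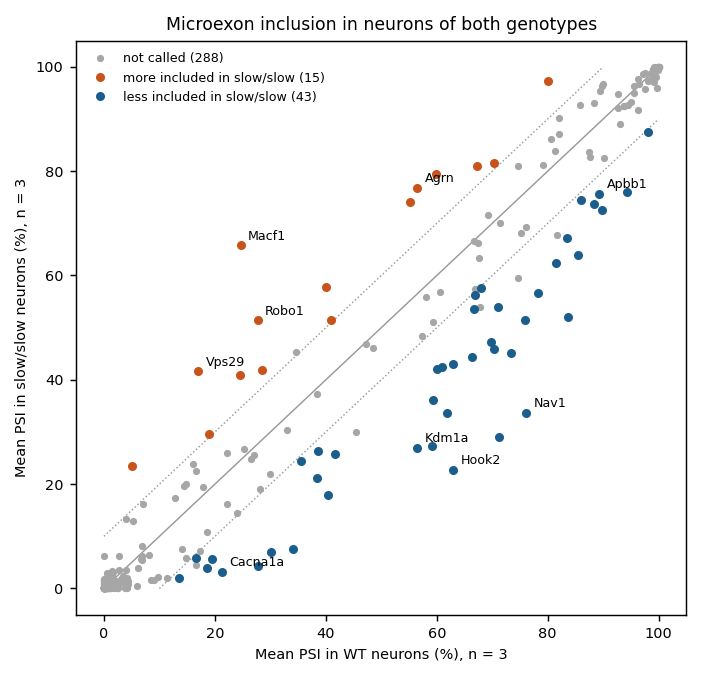
Mean PSI in WT neurons (x axis, %) against slow/slow neurons (y axis, %), with 1 point for each of the 346 microexons tested and n = 3 per genotype. The solid line marks equal inclusion and the dotted lines a difference of 10 points, and 43 called microexons lie below and 15 above, with Nav1 and Macf1 farthest out among those labelled.

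Microexons of the same gene did not always move together. Macf1 had 3: its 9-nt microexon was more included in slow/slow neurons, its 6-nt microexon was at 7.0 ± 2.3 against 30.1 ± 5.1 in WT neurons and was called less included, and its 12-nt microexon was at 0.4 ± 0.4 against 2.2 ± 0.3. Cacna1b, the N-type calcium channel, had a 12-nt microexon at 76.0 ± 9.4 against 94.3 ± 2.5 and a 6-nt one at 23.4 ± 6.8 against 5.0 ± 3.0, both called, on 36 to 204 reads. These pairs were named after their values had been seen. The 2 microexons of Vav2 were at 66.3 ± 2.7 and 66.7 ± 2.5 in slow/slow and at 67.5 ± 4.2 and 66.7 ± 4.8 in WT neurons, and neither was called. Both had risen from 0.5 ± 0.9 or less in WT NPCs.

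Of 32 hosts that are well described for their microexons, 22 had a microexon among the 479, and each of these had at least 1 that was covered, 32 in all. The remaining hosts had no exon that the deposited table marks as a microexon. Besides those above, Ap1s2, a subunit of the clathrin adaptor AP-1, was at 92.4 ± 2.0 in slow/slow and 93.7 ± 0.6 in WT neurons, and the 12-nt microexon of the adhesion molecule L1cam was at 99.4 ± 0.3 and 99.6 ± 0.0. Itsn1, a scaffold of endocytosis, was at 5.5 ± 1.2 and 6.8 ± 0.9. None of these 3 was called, and the genotypes differed by at most 1.3 points. Nrcam, a relative of L1cam, had its 12-nt microexon at 1.9, 2.4 and 1.8 in slow/slow and at 9.6, 10.7 and 13.7 in WT neurons, a separation of 9.3 points that lies just under the 10-point threshold (limma FDR 0.00577). The microexons of L1cam and Nrcam, both 12 nt, differ at 4 of 12 positions. For the receptor phosphatase Ptprd, a 9-nt microexon was at 7.2 ± 3.4 in slow/slow against 17.4 ± 4.2 in WT neurons without reaching the posterior probability, which was 0.88.

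The calls in neurons were counted by the role of the host, from 7 fixed gene lists that do not hold every gene of a role. Of 25 tested in cytoskeletal proteins 8 were called (6 less included, 2 more), of 22 in adhesion and guidance receptors 7 (3 less, 4 more) and of 20 in vesicle traffic 5 (4 less, 1 more). Of 15 in kinases, adaptors and GTPase regulators 3 were called, all less included, and of 4 in ion channels 3 (2 less, 1 more). Of 4 on the list of transcription and chromatin 1 was called, Kdm1a, and the list of translation and RNA-binding proteins held no microexon. Of the 256 in hosts outside these groups 31 were called (24 less, 7 more), or 12.1%. Hook2, Ccdc64, Lrrc16a, Phc1 and Taf1, all less included, and Supt5h, more included, were on no list and are among these 31. The groups are small and were read against the 16.8% called over all microexons, and no group was tested against another. Within the adhesion group the called members were split between directions, with Agrn and Robo1 more and Nfasc and Ptprs less included.

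By length, 16 of 106 microexons of 1 to 6 nt were called in neurons (15.1%), 12 of 74 of 7 to 9 nt (16.2%), 20 of 86 of 10 to 12 nt (23.3%) and 10 of 80 of 13 to 15 nt (12.5%). There was no steady trend with length. The shares differed more by reading frame, as 55 of the 279 with a length divisible by 3 were called (19.7%) and 3 of the 67 others (4.48%). In the step from NPCs to neurons in WT cells, 86 of 239 microexons divisible by 3 were called (36%) and 6 of 66 others (9.09%). Median PSI in WT neurons was 2.6 for the frame-preserving microexons covered throughout and 0.6 for the others. Both medians are near 0, where there is little room for a fall of 10 points, and the part of this in the shares was not tested. Shares by frame were not taken for other exons.

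The share of microexons called was above that of other exons as a whole and below that of other short exons. Of the 23959 other exons tested between the genotypes in neurons 3.36% were called, against 16.8% of the microexons. The share was 23.3% for the 240 other exons of at most 27 nt, 7.69% for those of 28 to 60 nt, 3.54% for those of 61 to 120 nt and 1.91% for those over 120 nt. In NPCs the shares were 5.37% for microexons, 21.7% for other exons of at most 27 nt and 2.89% for all other exons. Direction differed from that of other exons as a whole: in neurons 43 of 58 called microexons were less included in slow/slow, and 336 of 805 called other exons were. The called other exons of at most 27 nt were, like the microexons, mostly less included there. None of these differences between exon classes was tested, and only the other exons had to pass the study's filter on junction balance.

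**Figure D4:**
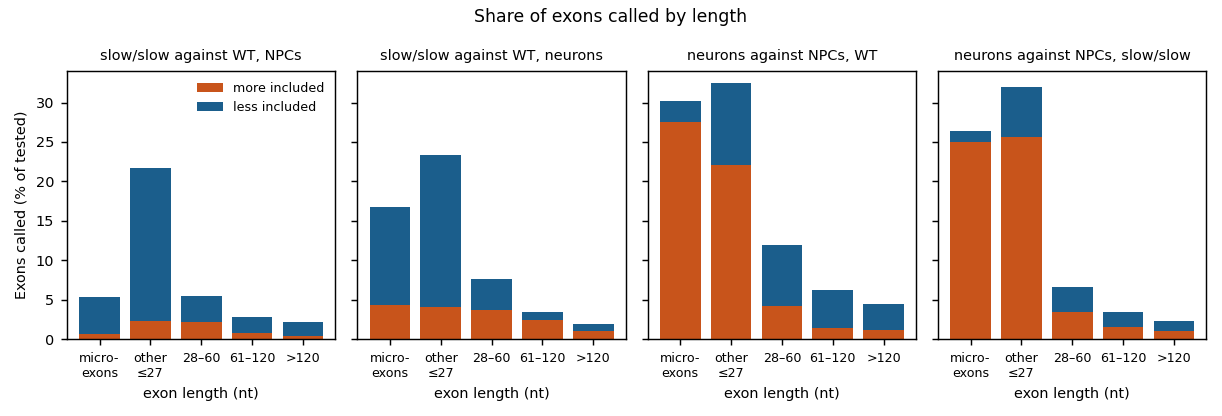
Percent of tested exons called (y axis) by exon class (x axis: microexons, then other exons of at most 27, 28 to 60, 61 to 120 and over 120 nt) in 4 comparisons, split into more included (orange) and less included (blue) in the first-named group (bars start at 0). In slow/slow against WT neurons, 16.8% of microexons and 23.3% of other exons of at most 27 nt were called, mostly less included, against 1.91% of exons over 120 nt.

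Whether the genotype difference itself changed between NPCs and neurons was tested with an interaction term in limma over the 12 samples of both stages. It passed an FDR under 0.05 for 25 of 278 microexons (8.99%), where 6.85% of all exon events passed. On the logit scale, the slow/slow minus WT difference was more positive in neurons than in NPCs for 17 of the 25. It was more negative for 8, where the shares over all exon events were 5.46% and 1.39%. A more positive difference need not mean more inclusion in slow/slow neurons. In 59 microexons the unadjusted p was under 0.05. Incenp was lower in slow/slow NPCs (10.0 against 26.7) and higher in slow/slow neurons (40.9 against 24.5), an interaction of 1.90 ± 0.12 (SE) on the logit scale with an FDR of 6.12e-06. Supt5h likewise went from 50.6 against 64.0 in NPCs to 97.2 against 80.1 in neurons (2.59 ± 0.21, FDR 3.5e-05), and Clasp2 from 43.1 against 67.0 to 29.6 against 18.9 (1.61 ± 0.17, FDR 0.000189). For these 3 the sign of the genotype difference was opposite at the 2 stages. For Nav2 the difference was −46.2 points in NPCs and 5.4 in neurons, for Macf1 3.6 and 41.1 points, and for Myo18a 26.3 and −1.7 points. Nav1, the paralogue of Nav2, was at 1.3 in slow/slow and 5.8 in WT NPCs, and its difference in neurons was −42.4 points.

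**Figure D5:**
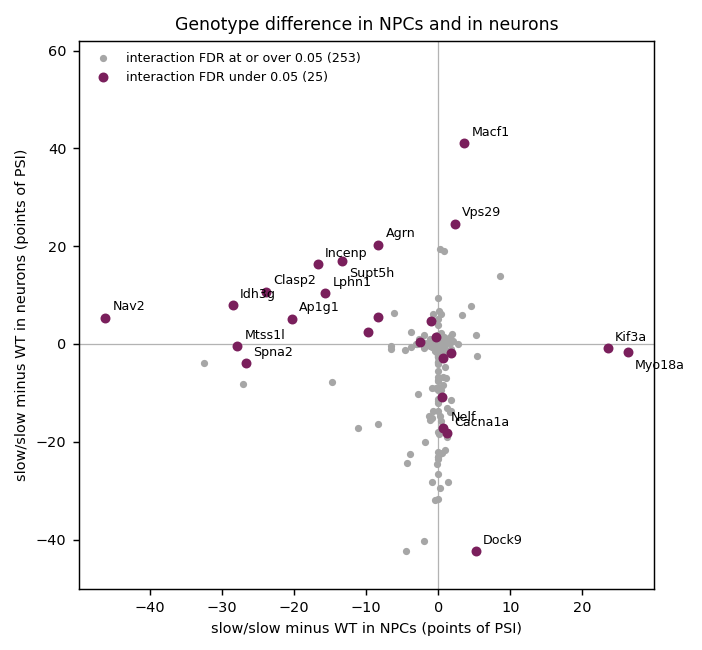
Difference of mean PSI, slow/slow minus WT, in NPCs (x axis, points) and in neurons (y axis, points) for the 278 microexons tested at both stages, with the 25 whose interaction passed an FDR under 0.05 in purple. Incenp, Supt5h and Clasp2 lie in the upper left quadrant, lower in slow/slow NPCs and higher in slow/slow neurons.

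Of 18 known regulators of microexons and of neuronal splicing, 10 differed in expression between genotypes in ESCs (5 higher and 5 lower in slow/slow), 10 in NPCs (8 higher, 2 lower), 15 in PSA-NCAM+ cells (14 higher, 1 lower) and, for neurons, 7 (3 higher, 4 lower), by edgeR with an FDR under 0.05, where 40.4%, 56.7%, 56.7% and 51.9% of all genes were called. Srrm4, the main activator of neuronal microexons, was at 86.8, 79.1 and 81.4 CPM in WT and at 93.8, 96.1 and 88.9 CPM in slow/slow neurons (FDR 0.574). In NPCs its level was 4.2 ± 0.813 CPM for slow/slow against 1.8 ± 0.241 CPM for WT (FDR 0.00104). Srrm3 was at 40.3 ± 5.11 and 36.3 ± 2.44 CPM in WT and slow/slow neurons (FDR 0.659), and the repressor Ptbp1 at 314 ± 32.1 and 287 ± 8.94 CPM (FDR 0.381). Neither the activators nor Ptbp1 passed the test in neurons. The neuronal splicing factor Nova1 was at 322, 316 and 301 CPM in WT and at 136, 132 and 127 CPM in slow/slow neurons (log2 change −1.25 ± 0.18, FDR 1.15e-05). Rbfox3 was lower at 19.7 ± 1.29 against 36.6 ± 3.04 CPM, Rbfox2 at 474 ± 11.4 against 651 ± 36.3 and Mbnl1 at 13.5 ± 0.363 against 18.4 ± 0.864. Qk was higher at 254 ± 14.8 against 167 ± 17.6 CPM and Ptbp2, the neuronal relative of Ptbp1, at 280 ± 7.26 against 221 ± 3.57. The part of these changes in inclusion was not tested.

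Host expression and the markers of the cultures moved with genotype as well. In slow/slow neurons 25 of the 42 measured hosts of a less included microexon were expressed at a lower level and 2 at a higher one, and so were 10 and 2 of the 15 hosts of a more included one, where 28.4% of all genes were lower and 23.4% higher. Of the 261 hosts with no called microexon 99 were lower and 43 higher. Nav1 was at 97.9 ± 4.11 CPM in slow/slow against 193 ± 2.92 in WT neurons (FDR 1.84e-08), Macf1 at 249 ± 23.1 against 433 ± 13.5 (FDR 3.34e-06) and Kdm1a at 277 ± 0.82 against 252 ± 2.64 (FDR 0.184). Of 6 measured neuronal markers 4 were lower in slow/slow neurons and 0 higher, with a summed level of 2739 to 2906 CPM against 3430 to 3740 in WT. Snap25 was at 60.2 ± 1.78 against 208 ± 17.8 CPM and Syn1 at 60.3 ± 1.76 against 221 ± 13.4. All 4 measured progenitor markers were higher (567 to 683 against 289 to 350 CPM summed), as were all 4 endothelial markers (98.1 to 124 against 10.9 to 13.8 CPM). In whole cultures, fewer cells of a type and less RNA of a gene per cell cannot be told apart, and the part of culture composition in the microexon differences was not tested. In slow/slow NPCs 5 of the 6 neuronal markers and all 4 progenitor markers were higher than in WT NPCs, and 4 of 5 pluripotency markers were lower. Pluripotency markers summed to 1887 to 1961 CPM in WT and 1114 to 1232 in slow/slow NPCs, against 5273 to 5734 in WT ESCs. Progenitor markers summed to 40.6 to 41.5 CPM in WT and 151 to 196 in slow/slow NPCs. In PSA-NCAM+ cells the pluripotency sum was 1295 to 1779 CPM in WT and 678 to 705 in slow/slow. NPC is thus used here as the name of a stage in the labels. Among the other marker lists in neurons, of 5 genes each, 3 pluripotency genes were higher and 1 lower, with a summed level of 75.5 to 79.1 CPM in slow/slow against 97.6 to 127 in WT. In the same cells 1 astrocyte gene was higher and 2 lower, 2 oligodendrocyte-lineage genes higher and 2 lower, 3 muscle genes higher and 0 lower, and 4 endoderm genes higher and 1 lower.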

How the data were processed

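Poly(A)+ RNA of 24 samples was sequenced as paired-end reads and, per the study's methods, mapped to mm9 and processed by the authors with vast-tools. The authors deposited PSI as a percent for each event and sample, with a quality field that holds the reads corrected for mappability, and raw read counts for each gene. A second splicing table, with 1 estimate per group and the authors' own calls, was not used, nor were the mean RPKM, fold change and FDR columns of the expression table. The junction balance filter of the study could not be applied to microexons, because their balance score is blank. It was applied to the other exon events.

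A microexon was tested where all 6 samples compared had a value. Any other exon was tested where all 6 passed the study's filters on coverage and junction balance. Each replicate's PSI was given a beta distribution from its inclusion and exclusion reads, each plus 1, in a scheme like that of the vast-tools diff module, and calls needed a difference of means over 10 points and a posterior probability over 0.95. The fit covered all exon events. Limma 3.58.1 on the logit of the reads (pseudocount 0.5), with Benjamini-Hochberg adjustment over all exon events, was the alternative, and gave the interaction test. Gene counts were tested in edgeR 4.0.16 (quasi-likelihood, TMM, 16627 genes after filterByExpr, 16 residual degrees of freedom), with DESeq2 1.42.0 as an alternative, in R 4.3.3. Python 3.11.15 was used for the rest. The procedures were tested on simulated data. Named microexons were up to 6 called in each direction per genotype comparison and up to 5 per stage comparison, by size of the difference, 1 per host, with at least 20 reads in every sample and no overlap, plus all covered microexons of 32 well-described hosts. The microexons, lists and tests were chosen with earlier results of these data known. The replicates came from independent differentiation experiments. All comparisons were also made leaving out each replicate, at 15 points, with stricter reads and with other scalings.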

Additional observations from a re-analysis of the deposited data

Results flagged for a closer look

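Of the 25 microexons whose genotype difference changed between NPCs and neurons by the limma interaction test (FDR under 0.05), the 16 given first are those that the rule for named microexons also picked in some comparison. The values below are the slow/slow minus WT difference of mean PSI in neurons less that in NPCs, in points, with n = 3 per group. The difference of differences was positive for Nav2 (51.7), Macf1 (37.5, for the 9-nt microexon), Idh3g (36.5), Clasp2 (34.6), Incenp (33.1), Supt5h (30.5), Agrn (28.6), Mtss1l (27.4), Ap1g1 (25.5), Spna2 (22.8), Vps29 (22.3) and Hook3 (13.8). It was negative for Myo18a (−27.9), Kif3a (−24.3), Cacna1a (−19.4) and the 12-nt microexon of Ptprs (−11.3). Of the other 9, chosen here after their values had been seen, Dock9 had −47.5, the most negative of the 25, and Lphn1 26.2, Nelf −17.9 and Ddx46 12.3, while the rest lay between −3.5 and 5.6. For the 16, the limma FDRs ranged from 6.12e-06 for Incenp to 0.0386 for Ptprs. In Nav2, Mtss1l, Spna2, Myo18a and Kif3a the difference lay mainly in NPCs, whereas in Macf1, Vps29, Cacna1a and Ptprs it lay mainly in neurons. The part of the marker genes that moved with genotype at both stages was not tested.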

How the results depend on the processing

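The 58 calls between genotypes in neurons became 54 to 69 leaving out 1 replicate, 52 with limma and 40 at 15 points. The 92 and 75 calls of the neuron step in WT and slow/slow cells became 91 to 97 and 75 to 81 leaving out 1 replicate and 85 to 92 and 69 to 76 otherwise. The 16 calls between genotypes in NPCs became 15 to 16 and 11 to 16, the 15 between WT ESCs and WT NPCs 13 to 16 and 12 to 15, and the 25 interaction calls 17 to 27 and 17 to 29. These stayed within 1.5 times the count, and the following did not. The 2 calls in ESCs became 1 at 15 points, 1 with limma, 1 with limma and a replicate block, and 2 to 4 leaving out 1 replicate. The 8 calls in PSA-NCAM+ cells became 0 with limma, 3 with the replicate block (where 114 of 24333 exon events were called) and 5 to 15 leaving out 1 replicate. Between ESCs and NPCs in slow/slow cells 7 became 3 with limma, 1 with the block and 6 to 8 leaving out 1 replicate. Between NPCs and PSA-NCAM+ cells, the 7 WT calls became 4 at 15 points, 0 with limma, 1 with the block and 6 to 9 leaving out 1 replicate. The 5 slow/slow calls there became 2, 0 and 2 under the same settings and 4 to 9 leaving out 1 replicate, with 9 reached without the third slow/slow PSA-NCAM+ replicate. The causes were not tested. No call of a named microexon changed direction, and the directions of the other calls were not followed one by one. Between the genotypes in PSA-NCAM+ cells, all 6 samples correlated best with their own replicate number, with correlations of 0.176, 0.0425 and 0.181. Their mean was 0.133, against −0.0665 for samples of different numbers. In neurons 0 of 6 samples did so. No label states that same-numbered replicates are paired. Of 93 named calls, 28 were lost with limma and 15 when some replicate was left out. Depth limits microexons with few reads, and the 51 without a value cannot be described.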

Other observations

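Of the 2 microexons of Dock9, an activator of the GTPase Cdc42, 1 measures 8 nt and so does not keep the reading frame. This 8-nt microexon was at 71.3 in WT and 29.0 in slow/slow neurons, and at 0.0 and 5.2 in WT and slow/slow NPCs (limma interaction FDR 0.00636). Its lowest read count in neurons was 19, under the minimum of 20 reads for named microexons. It was chosen here after its values had been seen. Both microexons of Dock9, the other of 6 nt, were called more included in WT neurons than in WT NPCs. Other microexons chosen in the same way were those of Git2 (33.6 in slow/slow against 61.9 in WT neurons), Phc1 (7.5 against 34.0) and Rims2, a scaffold of the presynaptic release site (36.1 against 59.3), all called less included. The bases of the 201 matched microexons were 32.3% A, 28.1% G, 20.3% T and 19.3% C.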
